A study of Mus musculus with 8 samples.

Results

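Prolactin family genes of decidua and trophoblast were read on 8 Affymetrix arrays of mouse oocytes, blastocysts and implantation sites. The genes examined were Prl8a2, Prl3c1, Prl6a1, Prl4a1, Prl3b1, Prl7d1 and the receptor gene Prlr, and the members were all probe sets that the platform annotation assigns to these 7 genes. A probe set is a group of short probes on the array that together report 1 transcript. Of 45101 probe sets, 5 were members, 1 each for Prl8a2, Prl3c1, Prl6a1, Prl4a1 and Prl7d1, and none of the 5 was shared with another gene of the family. The annotation used here listed no probe set for Prl3b1 or Prlr, which were not analysed here. The wider family held 24 probe sets, of which the 19 others served for comparison.

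The study compared connexin 43 knockout (KO) with wild type (WT) at 3 stages, to ask how connexin 43, a gap junction protein made from Gja1, affects early development. Mature (MII) oocytes and implantation sites had 1 KO and 1 WT array each, and blastocysts had 2 of each genotype. The sample titles begin with exp_a for oocytes, exp_b for blastocysts and exp_c for implantation sites. A difference between stages therefore cannot be told apart from a difference between these sets of arrays. Per the labels the RNA was polyadenylated, the genotypes were given as KO and WT, and the series title calls the depletion oocyte-directed. The sources used here do not give the promoter that drove the deletion, the strain, the age of the animals, the day of pregnancy or the number of animals pooled. One label names the implantation site material as embryo. Nothing in the labels says that arrays of a group came from separate animals, so p-values measure the spread between these arrays, which may be technical.

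The mouse prolactin family is a cluster of related hormone genes on chromosome 13 that grew by gene duplication. Besides pituitary prolactin, it encodes hormones that the decidua and the trophoblast secrete during pregnancy. The decidua is the uterine stroma that differentiates around the implanting embryo, and trophoblast is the embryonic lineage that forms the placenta. Some family hormones bind the prolactin receptor, which signals through the kinase JAK2 and the transcription factors STAT5A and STAT5B, while for others the target is another cell or is less clear. Prl8a2 encodes decidual prolactin-related protein, Prl3c1 encodes prolactin-like protein J and Prl6a1 encodes prolactin-like protein B, all known from decidua. Prl4a1 encodes prolactin-like protein A of trophoblast, and Prl7d1 encodes proliferin-related protein, a trophoblast hormone that inhibits blood vessel growth. Prl3b1 encodes placental lactogen II, a trophoblast ligand of the receptor.

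In the mouse assembly GRCm38.p6, the RefSeq gene table placed Prl3c1 on chromosome 13 at 27196660 to 27203749, Prl6a1 at 27312615 to 27319254, Prl8a2 at 27345673 to 27354216, Prl7d1 at 27708998 to 27716737 and Prl4a1 at 28016212 to 28023548. The 250 bases before the start are shown for the 4 measured members that the RefSeq promoter table held, because Prl3c1 and Prl6a1 stood above background at the implantation site and Prl7d1 and Prl4a1 did not. Each sequence runs 5′ to 3′ on the gene's own strand and ends at the base before the start of the gene. Capitals mark matches, on either strand, to TATAAA (bound by the general initiation machinery), AGATAA (bound by GATA factors), TTCNNNGAA (STAT factors), CCAAT (bound by nuclear factor Y), TGANTCA (AP-1) and ACANNNTGT (progesterone and glucocorticoid receptors), letters chosen with results of these data known.
Prl3c1, chr13:27196410-27196659, plus strand: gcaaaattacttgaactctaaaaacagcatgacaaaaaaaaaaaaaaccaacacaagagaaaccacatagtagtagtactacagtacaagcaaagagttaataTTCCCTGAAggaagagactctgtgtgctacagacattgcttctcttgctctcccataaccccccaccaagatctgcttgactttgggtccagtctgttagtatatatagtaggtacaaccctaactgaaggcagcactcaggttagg
Prl6a1, chr13:27312365-27312614, plus strand: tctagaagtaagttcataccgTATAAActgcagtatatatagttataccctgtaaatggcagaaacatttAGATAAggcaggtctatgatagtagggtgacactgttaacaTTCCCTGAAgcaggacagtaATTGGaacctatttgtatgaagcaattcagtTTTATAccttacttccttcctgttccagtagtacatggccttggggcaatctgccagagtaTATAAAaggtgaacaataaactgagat
Prl7d1, chr13:27716738-27716987, minus strand: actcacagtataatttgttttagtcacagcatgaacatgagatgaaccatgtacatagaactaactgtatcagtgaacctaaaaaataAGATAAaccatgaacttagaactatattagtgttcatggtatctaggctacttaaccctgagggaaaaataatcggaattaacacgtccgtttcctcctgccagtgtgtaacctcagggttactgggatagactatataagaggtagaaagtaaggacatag
Prl4a1, chr13:28015962-28016211, plus strand: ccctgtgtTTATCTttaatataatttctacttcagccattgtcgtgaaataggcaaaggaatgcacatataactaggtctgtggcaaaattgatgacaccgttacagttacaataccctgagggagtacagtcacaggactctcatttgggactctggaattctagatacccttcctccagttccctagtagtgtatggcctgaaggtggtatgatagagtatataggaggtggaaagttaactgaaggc
Prl3c1 and Prl6a1 each held 1 match to TTCNNNGAA, 147 bases before the start of Prl3c1 and 139 bases before the start of Prl6a1, and both matches read TTCCCTGAA. A second Prl3c1 start in the table, whose window begins at 27198653, had no TTCNNNGAA and 1 AGATAA, 64 bases before it. Of 32851 mouse promoter windows of the same length, 7.02% held TTCNNNGAA and 0.411% held TTCCCTGAA, the latter counted after both matches had been seen. Among the 25 promoter windows of the family, 6 held TTCNNNGAA and 4 held TTCCCTGAA, namely Prl3c1, the overlapping windows of 2 Prl6a1 starts and Prl8a1. The Prl6a1 window also held TATAAA at 229, 88 and 27 bases before the start, AGATAA at 180 and CCAAT at 119. The other windows printed had 1 match each to AGATAA, 162 bases before the start of Prl7d1 and 242 bases before that of Prl4a1. AGATAA stood in 9.99% of all windows, TATAAA in 12.4%, CCAAT in 33.9%, TGANTCA in 6.75% and ACANNNTGT in 5.84%. A match describes letters and is not evidence of a bound site.

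Signals are intensities that the authors made with MAS5 on a linear scale. Their trimmed mean was 500 on every array. The background level of an array was taken as the signal of its brightest Bacillus control probe set, out of 27. It was 588 on the oocyte KO and 171 on the oocyte WT array, 535 and 560 on the blastocyst KO arrays, 322 and 345 on the blastocyst WT arrays, and 131 and 174 on the implantation site KO and WT arrays. KO arrays thus had the higher level in oocytes and blastocysts, and between 20.4% and 50.8% of all probe sets on an array exceeded it. The ratio of 3′ to 5′ signal of the Gapdh control probe sets, a sign of RNA quality, was 2.41 on the oocyte KO and 10.1 on the oocyte WT array, 11.2 and 11.8 in KO and 7.27 and 7.71 in WT blastocysts, and 7.46 and 7.21 at the implantation site. That of Actb was 6.68 and 33.4 in oocytes, 25.7 and 39.0 in KO and 69.3 and 69.1 in WT blastocysts, and 27.9 and 21.2 at the implantation site. Both ratios thus separated KO from WT blastocysts, in opposite directions, and their part in the KO differences was not tested. Gja1 went against 1 label. Its brightest probe set read 9835 on blastocyst WT array 1 but 574 on the array labelled WT 2, beside 375 and 553 in KO blastocysts. At the implantation site it read 28105 on the KO and 44493 on the WT array, and in oocytes, below the level, 150 and 126. Member differences that use the array labelled blastocyst WT 2 are therefore also given without it where that moved them by over 1.5 times or changed a call or sign, and for the contrasts nearest the threshold.

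Of the 5 members, 3, namely Prl3c1, Prl6a1 and Prl8a2, exceeded the background level on both implantation site arrays, as did 42.0% of all probe sets. Prl3c1 and Prl6a1 did so on no oocyte or blastocyst array. Prl8a2 was above the level in oocytes as well, Prl7d1 was above it only on the oocyte WT array, and Prl4a1 was above it on none of the 8 arrays, as were 26.4% of all probe sets. Prl3c1 at the implantation site against oocytes was the only member difference that passed a test at any stage contrast or in blastocyst KO against WT.

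**Figure D1:**
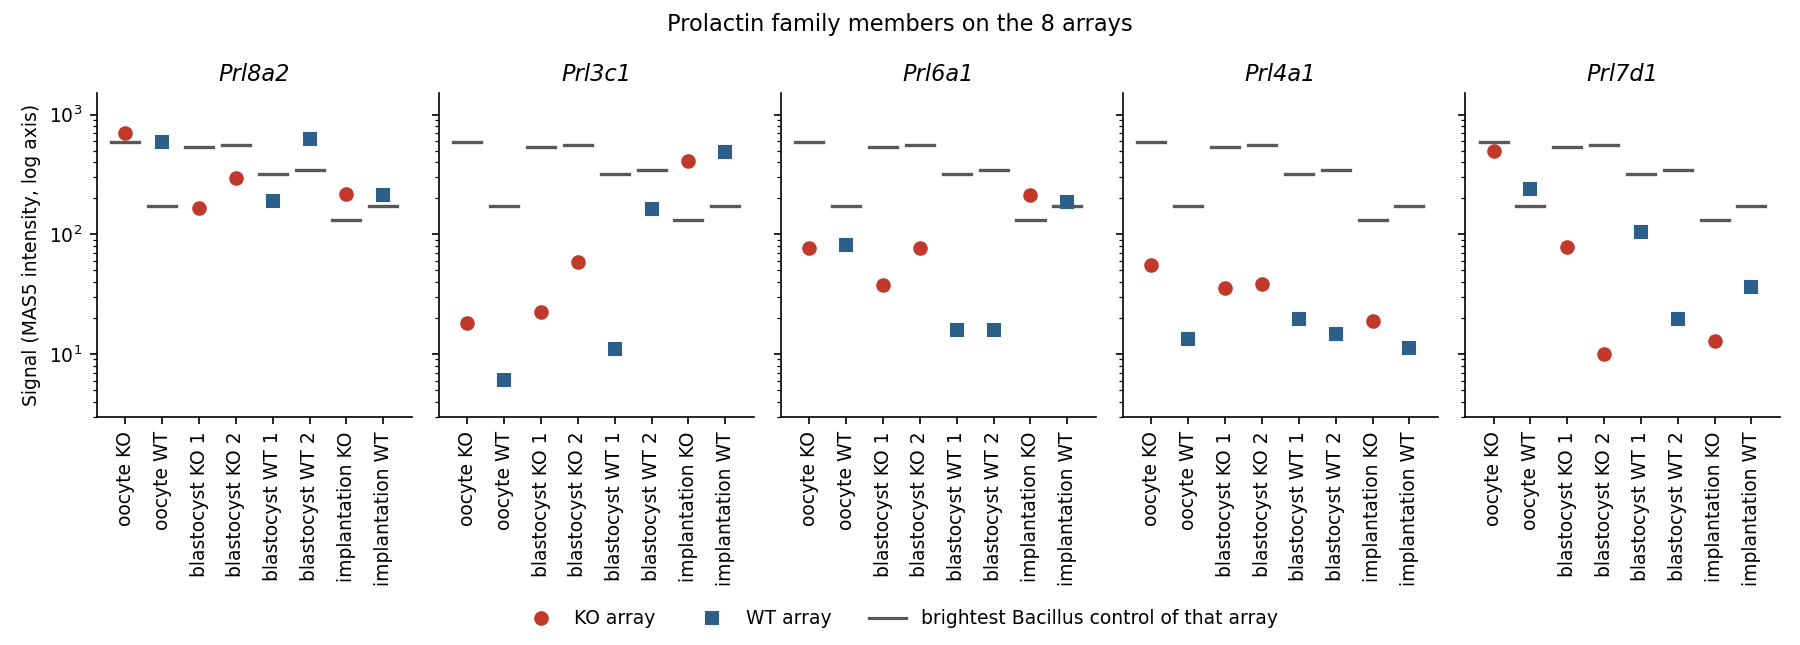
Signal of the 5 members on each of the 8 arrays (log axis, MAS5 intensity), with red circles for KO arrays, blue squares for WT arrays and a grey bar at the brightest Bacillus control of that array. Prl3c1 and Prl6a1 lie above the bar only on both implantation site arrays, Prl8a2 on 5 arrays, Prl7d1 on 1 and Prl4a1 on none.

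Among the decidual members, Prl3c1, the prolactin-like protein J gene, read 412 on the implantation site KO array and 489 on the WT array. In oocytes it read 18.3 on the KO and 6.01 on the WT array. Blastocyst KO arrays read 22.3 and 58.5, WT array 1 read 10.9 and the array labelled WT 2 read 162. Both implantation site arrays were thus above all 6 others, none of which exceeded its background level. The geometric mean was 449 at the implantation site (SD 0.18 on the log2 scale, n = 2), 38.9 in blastocysts (SD 1.69, n = 4) and 10.5 in oocytes (SD 1.13, n = 2). Here and for the other members, stage means and SDs pool KO and WT arrays. An SD with n = 2 is thus between 1 KO and 1 WT array and does not measure replicate spread.

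Prl3c1 rose at the implantation site over oocytes by a fitted log2 difference of 5.42 ± 1.41 (SE), with an adjusted p of 0.0123 by limma over all 45037 probe sets. Since both oocyte values were below background, the difference is known only as at least 1.42-fold on average over the genotypes. For KO alone no lower bound above 1 holds, as the oocyte KO level (588) was above both implantation site signals. The bound was at least 2.14-fold where the level was taken from 15 Bacillus controls. In that contrast 9.86% of all probe sets were called higher and 8.29% lower. The call was lost without the oocyte WT array (adjusted p 0.125), without the implantation site KO array (0.0619) and without the implantation site WT array (0.0739), and with signals floored at the background level (log2 0.50, adjusted p 0.402). Against blastocysts the log2 difference was 3.53 ± 1.22 (SE) with a limma adjusted p of 0.0540. It is known only as at least 1.05-fold on average over the genotypes, as both blastocyst KO levels (535 and 560) were above both implantation site signals. In the contrast with blastocysts 7.80% of probe sets were called higher and 11.1% lower. Without the array labelled blastocyst WT 2 the difference was 4.39 and the limma adjusted p was 0.0217. Between blastocysts and oocytes, both below background, the log2 difference was 1.89 (limma adjusted p 0.325), or 1.03 without the array labelled WT 2, against 12.3% of probe sets called higher and 8.79% lower.

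Prl6a1, the prolactin-like protein B gene, was also brightest at the implantation site. It read 211 on the KO array, against a level of 131, and 188 on the WT array, just above a level of 174. Oocytes read 76.4 (KO) and 81.0 (WT), and blastocysts 37.4 and 76.6 (KO) and 16.0 and 15.9 (WT). Both implantation site arrays exceeded the other 6 arrays in signal, but the levels of those 6 arrays reached up to 588, so no lower bound above 1 could be given for the fold. The geometric mean was 199 at the implantation site (SD 0.12 on the log2 scale, n = 2), 78.7 in oocytes (SD 0.06, n = 2) and 29.2 in blastocysts (SD 1.10, n = 4). The log2 difference was 2.77 ± 1.05 (SE) against blastocysts (limma adjusted p 0.0768) and 1.34 ± 1.21 against oocytes (limma adjusted p 0.490), so neither passed. Without the array labelled blastocyst WT 2 the difference from blastocysts was 2.60 (limma adjusted p 0.138). With quantile normalization it passed (log2 3.03, limma adjusted p 0.0415), and so it did with each array scaled to a common median (3.13 and 0.0401). With signals floored at the background level its sign turned (log2 -1.10, limma adjusted p 0.0396), as the floor of the blastocyst arrays was higher than the Prl6a1 signal at the implantation site.

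Prl8a2, the gene of decidual prolactin-related protein, was above background on both oocyte and both implantation site arrays, and in blastocysts only on the array labelled WT 2. It read 708 (KO) and 588 (WT) in oocytes, 165 and 295 in KO blastocysts, 188 on the array labelled blastocyst WT 1 and 623 on that labelled WT 2. At the implantation site it read 217 on the KO and 211 on the WT array. The oocyte and implantation site arrays did not overlap, and oocytes were the brighter, while the blastocyst arrays spanned values from below the implantation site to within the oocyte range. Geometric means were 645 (SD 0.19 on the log2 scale, n = 2), 275 (SD 0.87, n = 4) and 214 (SD 0.03, n = 2) in this order of development. Neither step passed the test. Blastocysts against oocytes gave a log2 difference of -1.23 ± 0.63 (SE, limma adjusted p 0.204), or -1.66 without the array labelled WT 2 (0.103), and implantation sites against blastocysts -0.36 ± 0.63 (limma adjusted p 0.728). Implantation sites against oocytes gave -1.59 ± 0.73 (limma adjusted p 0.151). Without the array labelled blastocyst WT 2, the difference between implantation sites and blastocysts was 0.06.

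Of the trophoblast members, Prl7d1, the proliferin-related protein gene, had its brightest values in oocytes, with 497 on the KO array, under a level of 588, and 238 on the WT array, over a level of 171. In blastocysts it read 78.2 and 10.0 (KO) and 105 and 19.7 (WT), and at the implantation site 12.9 (KO) and 35.9 (WT). Both oocyte arrays lay above the other 6, and no array of the later stages exceeded its background. The log2 difference from oocytes was -4.00 ± 1.39 (SE) at the implantation site (limma adjusted p 0.0566) and -3.27 ± 1.20 in blastocysts (limma adjusted p 0.0659), neither of which passed. The first passed with a common median (limma adjusted p 0.0492) and a pseudocount of 50 (0.0149), and the second with quantile normalization (0.0300), a common median (0.0361) and a pseudocount (0.0146). Without the array labelled blastocyst WT 2 the difference between blastocysts and oocytes was -2.83 (0.153). Only 1 of 2 oocyte arrays was above background, so no lower bound of the fold is given. The implantation site and blastocyst values differed by -0.73 ± 1.20 (limma adjusted p 0.711), or by -1.16 without that array.

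Prl4a1, the prolactin-like protein A gene, stayed between 11.3 and 55.8 on all 8 arrays and reached at most 0.145 of the background level. It read 55.8 (KO) and 13.3 (WT) in oocytes, 35.5 and 38.4 (KO) and 19.7 and 14.8 (WT) in blastocysts, and 19.0 (KO) and 11.3 (WT) at the implantation site. Values at this height have no reliable order, and the 3 stage contrasts gave limma adjusted p of 0.608 to 0.953. The log2 difference between blastocysts and oocytes was -0.12, or -0.065 without the array labelled WT 2.

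**Figure D2:**
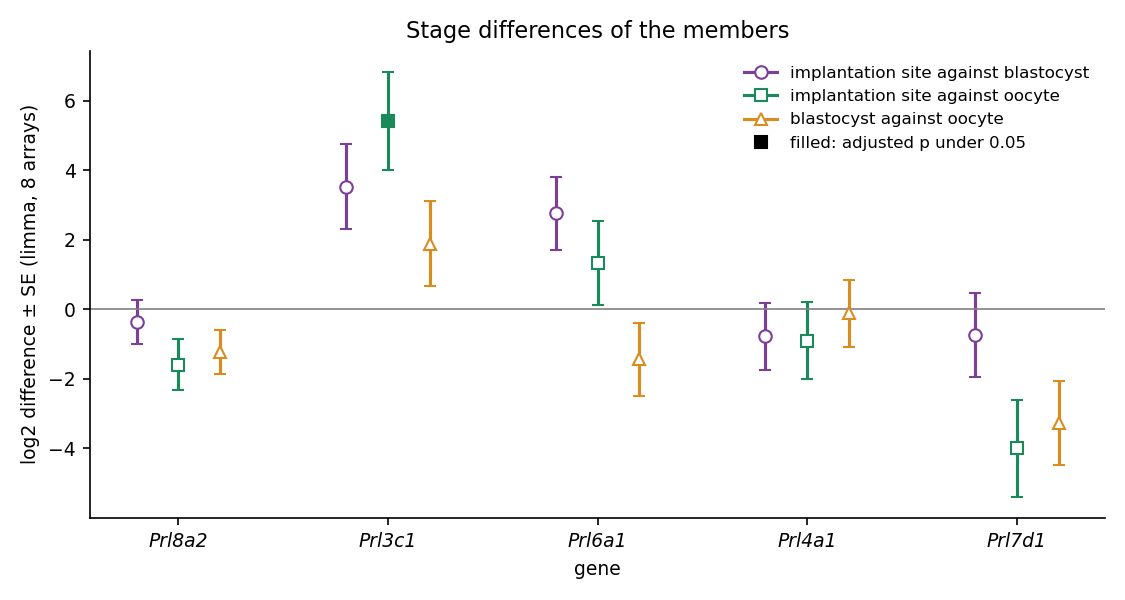
Log2 difference (± SE, limma on 8 arrays) of the 5 members between stages, with purple circles for implantation site against blastocyst, green squares for implantation site against oocyte and orange triangles for blastocyst against oocyte. The only filled symbol, marking an adjusted p under 0.05, is that of Prl3c1 at the implantation site against oocyte, and fitted values of signals below background are not fold changes of RNA.

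KO and WT differed by less than 2-fold at the implantation site for the 3 members above background there. With 1 array for each genotype there was no test. Prl8a2 differed by a log2 value of 0.04 (KO minus WT), Prl6a1 by 0.17 and Prl3c1 by -0.25, that is by factors of 1.03, 1.12 and 1.19. With a common median these were 0.45, 0.58 and 0.16, so that the sign of Prl3c1 turned, and with quantile normalization 0.38, 0.52 and -0.05. Over all probe sets at this stage, KO was higher by 2-fold or more for 13.0% and lower by 2-fold or more for 26.3%, with a median log2 difference of -0.24. No member was at least 2-fold higher, and 1 was at least 2-fold lower, Prl7d1 (log2 -1.48, or -0.66 after quantile normalization), which was below background on both arrays. Prl4a1, also below background on both, was at 0.75, and passed 2-fold after quantile normalization (1.30) and with a common median (1.16). The overall split moved with array scaling. Of probe sets at least 2-fold apart, 33.0% were higher in KO as deposited, 49.9% after quantile normalization and 52.5% after scaling to a common median.

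In blastocysts no member passed in KO against WT (2 against 2 arrays). Over all 45037 probe sets, limma called 9, or 0.0200%, all of them higher in KO, and at an unadjusted p under 0.05 it had 3348 higher and 1911 lower, none of them a member. Without the array labelled WT 2 there were 381 calls (369 higher and 12 lower), and without the first WT array 1, again with no member among them. Prl6a1 and Prl4a1 were higher on both KO than on both WT arrays, with log2 differences of 1.75 ± 1.07 (SE, limma adjusted p 0.551) and 1.11 ± 1.02 (limma adjusted p 0.700). Such a lack of overlap with KO higher held for 25.5% of all probe sets, and with KO lower for 18.6%. All 8 blastocyst values of these genes were below background, and the background level was itself higher on both KO arrays. The other members overlapped between genotypes, with log2 differences of -0.22 for Prl3c1, -0.70 for Prl7d1 and -0.63 for Prl8a2 (limma adjusted p 0.765 to 0.968). Without the array labelled WT 2, Prl3c1 was at 1.73, Prl7d1 at -1.90 and Prl8a2 at 0.23.

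In oocytes, with 1 array a genotype and no test, the KO array read 1.20-fold higher for Prl8a2 and 2.09-fold higher for Prl7d1, and 1.06-fold lower for Prl6a1. Prl6a1 was below background on both arrays. Prl7d1 was at 0.845 of the level on the KO array and at 1.39 of it on the WT array, the opposite order. Prl3c1 and Prl4a1 were 3.04-fold and 4.20-fold higher in KO with all values below background. Of the 5 members 3 were thus at least 2-fold higher and none was 2-fold lower as deposited, while KO was higher by that much for 39.1% of all probe sets and lower for 13.1%. These member values moved with array scaling. After quantile normalization the log2 differences were 0.14 for Prl3c1, 0.66 for Prl4a1, 0.64 for Prl7d1, -0.0065 for Prl8a2 and -1.31 for Prl6a1, so that none was 2-fold higher and Prl6a1 was 2-fold lower. With a common median they were 1.06, 1.52, 0.52, -0.28 and -0.63 in the same order. The oocyte KO array also had the higher background level, and its part in these differences was not tested. The share higher in KO among probe sets at least 2-fold apart was 74.9% as deposited, 49.9% after quantile normalization and 53.4% after scaling to a common median. A fit with a stage by genotype term on the 8 arrays was added after the values were seen. Its spread came from the blastocyst arrays alone, the array labelled WT 2 among them. The other groups had 1 array each, so it cannot test whether KO minus WT differed between stages. Its member estimates ran from -2.55 for Prl7d1 (implantation site minus oocyte) to 1.83 for Prl6a1 (blastocyst minus oocyte), on the log2 scale.

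**Figure D3:**
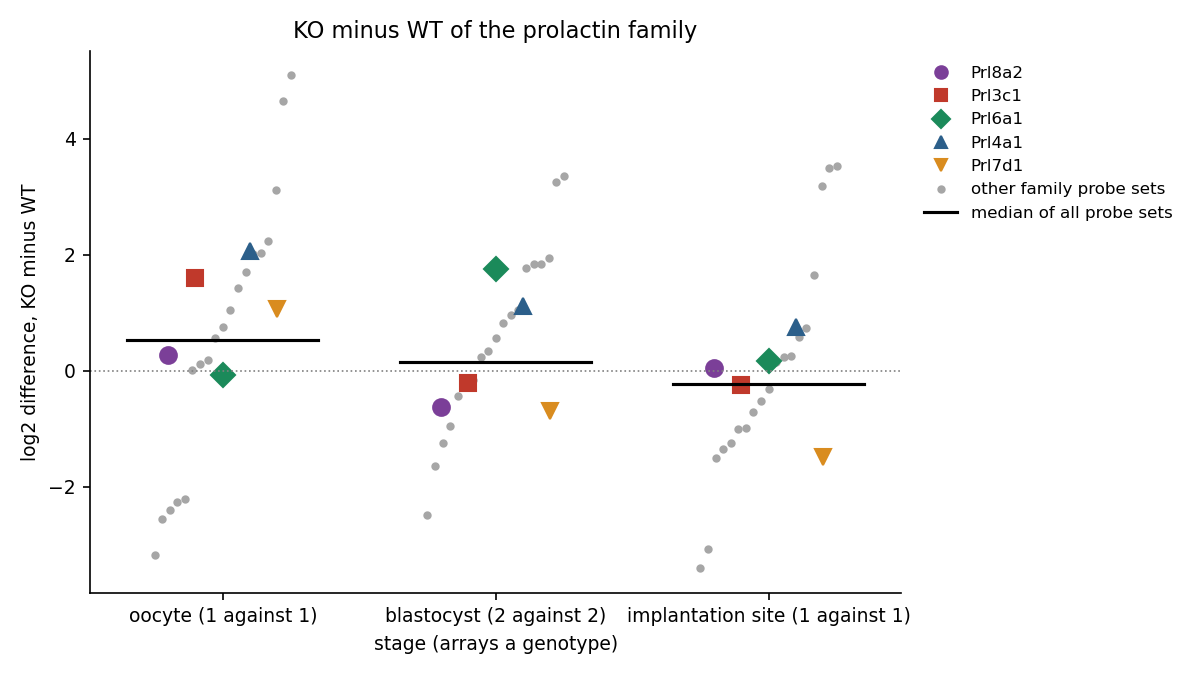
Log2 difference of KO minus WT at each stage for the 5 members (coloured symbols) and the 19 other family probe sets (grey points, ordered by value), with a black bar at the median of all probe sets. At the implantation site Prl8a2, Prl6a1 and Prl3c1 lie between -0.25 and 0.17 as deposited (with a common median Prl3c1 turns to 0.16), while other family probe sets, nearly all below background, spread from -3.41 to 3.52.

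Across the family, 4 of 24 probe sets exceeded background on both implantation site arrays, against 42.0% of all probe sets. They were the 3 members and 1 probe set shared between Gm7040, Prl2c4, Prl2c3 and Prl2c2. The Prl2c genes encode proliferins, trophoblast hormones that promote blood vessel growth, and the signal of this probe set cannot be assigned to 1 of them. It read 132 (KO) and 217 (WT) at the implantation site, 112 and 27.9 in oocytes, and 327 and 625 (KO) and 42.6 and 45.3 (WT) in blastocysts. Its KO and WT blastocyst arrays did not overlap, but only the second KO array was above background. A second shared probe set, which also covers Prl2c5, was below background on all 8 arrays, and there the blastocyst KO arrays (9.31 and 6.86) were lower than the WT arrays (63.9 and 31.7). The pair of shared probe sets thus went opposite ways, and neither passed in blastocysts.

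Of the 19 other family probe sets, 13 were above background on none of the 8 arrays, or 6 where the level was taken from 15 controls. Prl, the pituitary hormone itself, read 179 (KO) and 150 (WT) at the implantation site, 401 and 239 in oocytes, and 181 to 501 in blastocysts, and was above background on 3 arrays. Prl2a1, which encodes prolactin-like protein M, was above background on the implantation site WT array (251) and not on the KO array (124). For Prl8a1, limma called 1 of 2 probe sets lower at the implantation site than in blastocysts (adjusted p 0.0331), although that probe set was below background on all 8 arrays, so the call compares values that have no reliable order. The other was called lower than in oocytes (limma adjusted p 0.0264), where only the WT array, at 274, was above background. The Prl8a1 values at the implantation site, 8.13 to 14.9, were all below background. No other family probe set besides these and Prl3c1 was called in any stage contrast. The median log2 difference of the 24 probe sets was -0.75 at the implantation site against blastocysts (all probe sets -0.41), -0.94 against oocytes (all -0.36) and -0.42 in blastocysts against oocytes (all 0.12).

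The largest KO differences among the other family genes at the implantation site were all in dim probe sets. One Prl2b1 probe set was higher in KO by a log2 value of 3.52 (76.4 against 6.64) while the other was at -1.36 (55.1 against 141). Prl7a1, which encodes a hormone known to act on megakaryocytes, had 1 probe set at 3.49 and another at -3.41. Prl7a2, of the same subfamily, was at 3.18 (106 against 11.7). Apart from 141 of the implantation site WT array for Prl2b1 and 143 for Prl7a1, which exceeded the level from 15 controls only, all of these were below background by either level, and probe sets of 1 gene disagreed in direction.

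**Figure D4:**
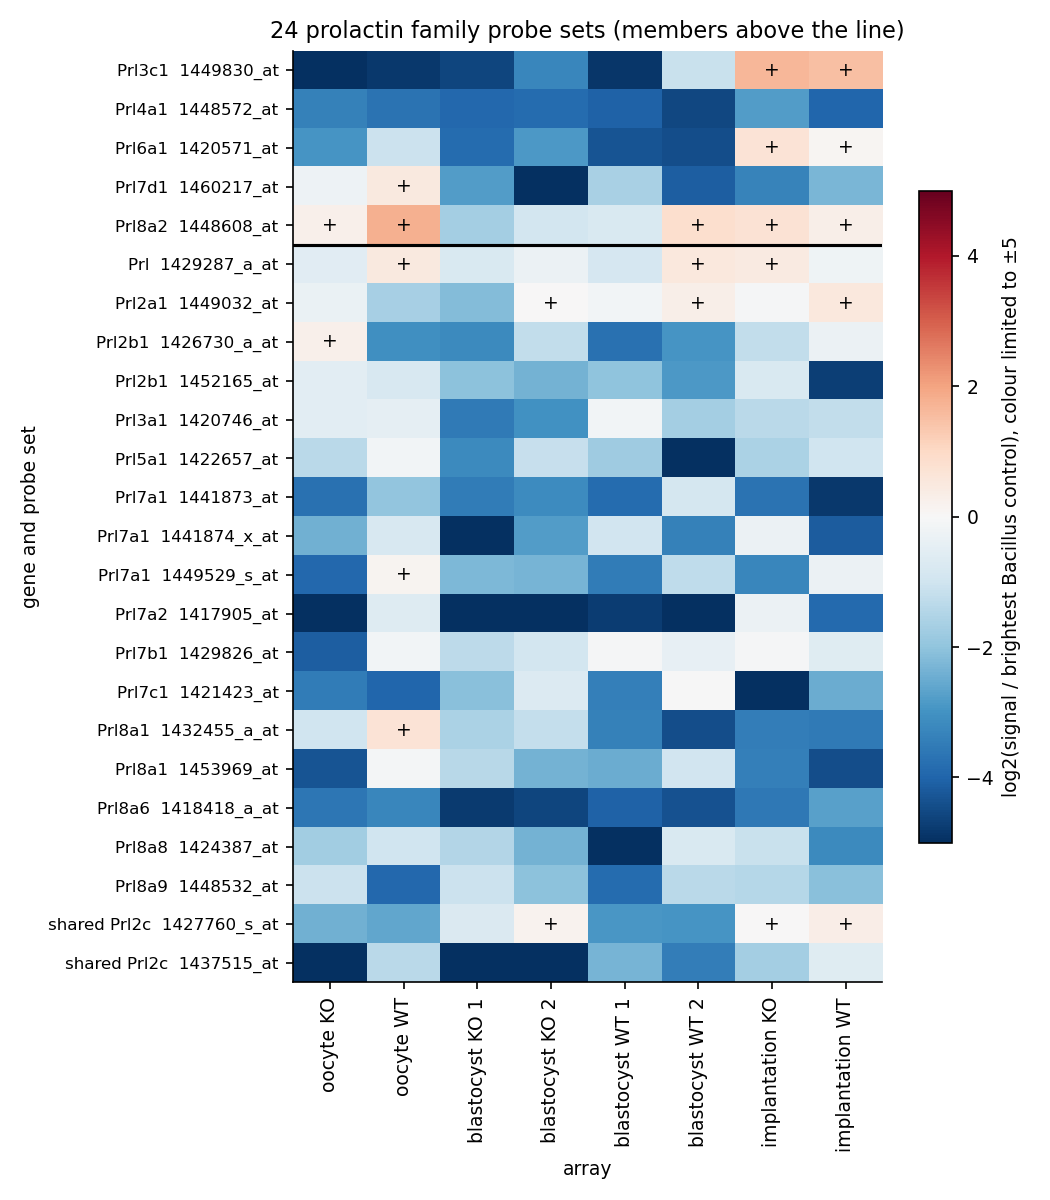
Log2 ratio of signal to the brightest Bacillus control of the same array for the 24 family probe sets (rows, named by gene and probe set, members above the black line) on the 8 arrays (columns), with red above and blue below background and a plus sign on each value above it. Plus signs in both implantation site columns occur for Prl3c1, Prl6a1, Prl8a2 and 1 shared Prl2c probe set.

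Genes of prolactin receptor signalling were measured in 15 of 16 cases, each by its probe set of highest mean signal, and 10 of the 15 exceeded background on both implantation site arrays. Against blastocysts 3 of 15 rose and 2 fell, and against oocytes 3 rose and 3 fell, with median log2 differences of -0.92 and -0.61. Of all probe sets 42.0% exceeded background on both implantation site arrays. Against blastocysts 7.80% of them rose and 11.1% fell, and against oocytes 9.86% rose and 8.29% fell. Socs3, an inhibitor of cytokine receptor signalling, read 9625 (KO) and 5341 (WT) at the implantation site, 2220 to 4035 in blastocysts and 246 and 404 in oocytes. This probe set rose in both contrasts, by 1.27 ± 0.39 (SE, limma adjusted p 0.033) and 4.51 ± 0.45. The other Socs3 probe sets were called against oocytes but not against blastocysts (0.81 and 0.77, limma adjusted p 0.361 and 0.413). The first of them read 588 (KO) and 926 (WT) at the implantation site, the opposite order. Irs1, an adaptor of insulin and cytokine receptors, read 3436 and 5720 at the implantation site and 13.1 to 48.6 in blastocysts, and also rose in both contrasts. Ptpn11, a phosphatase of receptor signalling, rose against blastocysts and Socs2, an inhibitor of growth hormone and prolactin signalling, against oocytes. The other Ptpn11 probe sets were at -2.20 and -0.32 against blastocysts and were not called. No other Socs2 probe set was called against oocytes. Cish, an inhibitor and target of STAT5, and Gh, growth hormone, fell against blastocysts. The representing probe set of Gh was below background at the implantation site (106 and 74.1). Against oocytes Jak2, Gh and Akr1c18 fell.

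The kinase gene Jak2 was above background on all 8 arrays and read 3060 (KO) and 2464 (WT) at the implantation site. Stat5a read 205 and 434 there. The representing probe set of Stat5b read 126 and 188, above background on the WT array alone, while its other probe set read 267 and 384, above background on both. Akr1c18, which breaks down progesterone and is known to be repressed by prolactin signalling in the ovary, read 4382 (KO) and 5580 (WT) in oocytes, 246 to 645 in blastocysts, and 26.2 (KO) and 299 (WT) at the implantation site. Its log2 difference between implantation sites and oocytes was -5.80 ± 0.84 (SE). At the implantation site 3 of the 15 genes were at least 2-fold lower on the KO array and none was 2-fold higher. Of all probe sets 26.3% were lower and 13.0% higher by that much. The 3 genes were Socs1 (10.4 against 140, both below background), Akr1c18 (below background on the KO array) and Stat5a. The representing probe set of Ghr, the growth hormone receptor gene, was dim at the implantation site (77.3 and 115), while another of its 3 probe sets read 2967 and 4893 there and 9.13 to 83.6 in blastocysts. That probe set, picked after its values were seen, gave a log2 difference of 7.02 between implantation sites and blastocysts, so the probe sets of Ghr disagreed.

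The marker lists set the members beside the tissue, and in bulk RNA fewer cells of a type and less RNA per cell cannot be told apart. Of 19 measured decidual stroma genes, 18 exceeded background on both implantation site arrays, 13 rose and 1 fell against blastocysts, and the median log2 difference was 4.90. Of all probe sets 42.0% exceeded it on both arrays, and 7.80% rose and 11.1% fell in that contrast. A list gene is read by its probe set of highest mean signal, which favours being above background. The summed signal of the 19 genes was 155100 to 163400 at the implantation site and 7552 to 16010 in blastocysts. The list and these sums include Gja1 itself, with 9835 on blastocyst WT array 1 and 28105 (KO) and 44493 (WT) at the implantation site. The progesterone receptor gene Pgr read 30636 (KO) and 27384 (WT) there, Hand2, a progesterone-dependent factor of the stroma, 18803 and 15722, and Bmp2, a signal needed for decidualization, 13285 and 8357. The 1 gene of that list not above background on both arrays was Des, the decidual filament gene desmin, with 26.6 (KO) and 356 (WT). KO and WT values of Foxo1 were 581 and 1138, those of Hoxa11 were 531 and 1296, and those of Fst were 9053 and 5058.

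Of 21 measured genes on the list of trophoblast giant cells and the ectoplacental cone, 5 exceeded background on both implantation site arrays. Of all probe sets 42.0% did. The list also holds Cdx2, a trophectoderm factor. Against blastocysts none rose and 6 fell: Plac1, Tfap2c, Cdx2, Eomes, Elf5 and Gata3. Of all probe sets 7.80% rose and 11.1% fell there. Tpbpa (log2 0.42) and Ctsq (-0.32), described below, were not called. The summed signal of the 21 genes was 5921 to 8563 at the implantation site and 29660 to 36200 in blastocysts. In blastocysts Tfap2c read 9225 to 13192, Eomes 5812 to 12790 and Cdx2 3084 to 5980. The 5 genes above background on both implantation site arrays were Tfap2c (3893 in KO and 1752 in WT), Gata2 (2657 and 2163), Eomes (497 and 389), Plac1 (270.5 and 351) and Hand1 (188 and 215), all of them regulators of trophoblast except Plac1, a placental gene. Eomes was also on the list of uterine natural killer cells given below and is counted in both. Tpbpa, the spongiotrophoblast marker, read 86.9 (KO), below background, and 221 (WT), above it, and Ctsq, a giant cell protease, read 68.6 and 47.2, below it on both. Cyp11a1, which starts steroid synthesis, read 131 (KO) and 25.4 (WT), Psg19 38.2 and 236, Elf5 105 and 21.6 and Cts8 89.3 and 19.2. Elf5 and Cts8 were below background on both arrays, Psg19 on the KO array and Cyp11a1 on the WT array. Cyp11a1 on the KO array was right at the level.

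Other cell types were read with further lists. Above background on both implantation site arrays were 5 of 6 smooth muscle genes, 6 of 7 endothelial genes, 8 of 11 genes of uterine epithelium, 7 of 13 of uterine natural killer cells, 1 of 7 of inner cell mass, 1 of 5 of the pituitary, 0 of 6 of red blood cells and 0 of 9 of oocytes. Of all probe sets 42.0% were. Summed signals at the implantation site were 18320 to 29680 for smooth muscle, 2274 to 2664 for endothelium, 3156 to 3455 for epithelium, 4160 to 6339 for natural killer cells, 2792 to 6681 for inner cell mass, 385 to 836 for the pituitary, 198 to 386 for red blood cells and 569 to 943 for oocytes. Most of the inner cell mass sum was Klf4, with 2502 (KO) and 6151 (WT), while Nanog, Sox2, Fgf4 and Tdgf1 were below background on both arrays. The part of any of these cell types in the family signals was not tested.

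**Figure D5:**
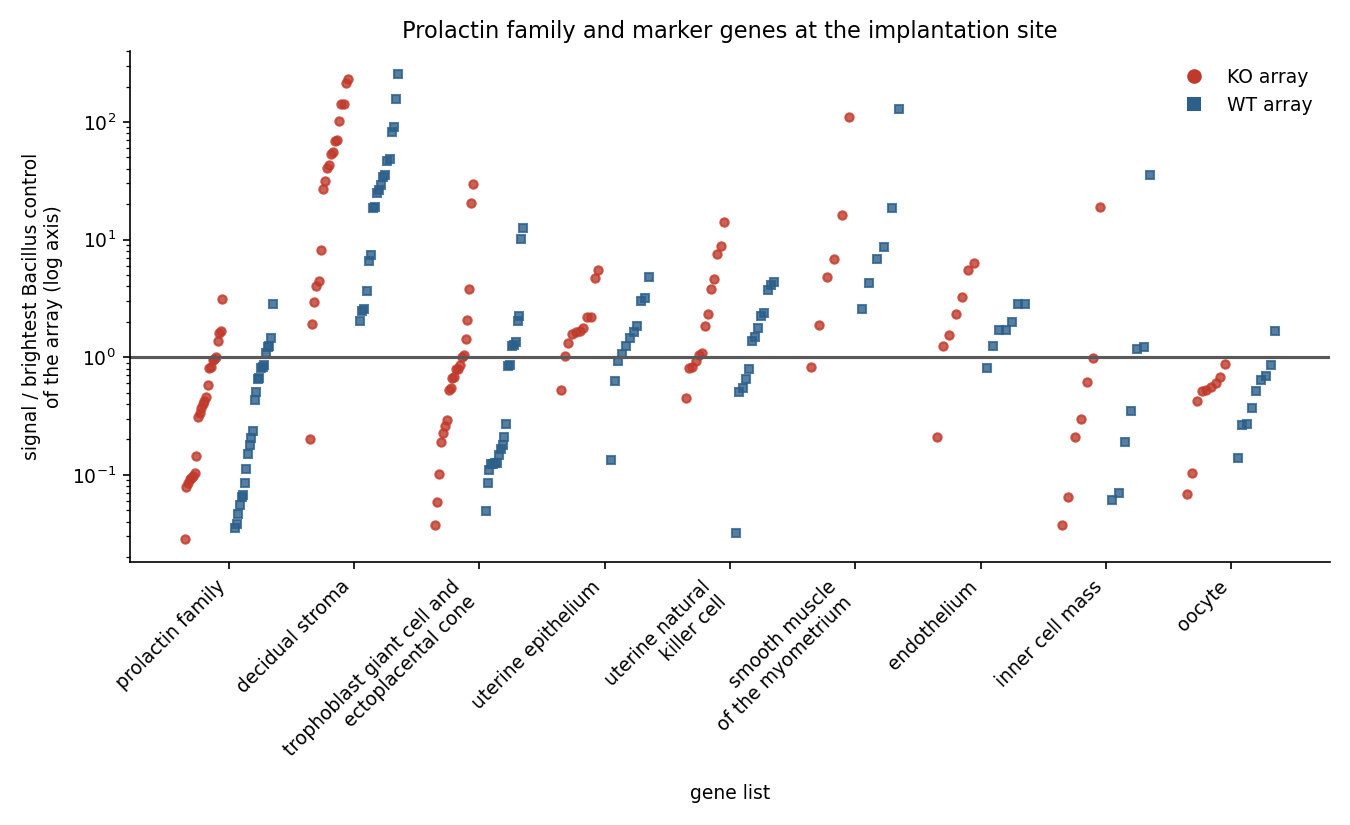
Signal at the implantation site divided by the brightest Bacillus control of the same array (log axis, line at 1), for the 24 family probe sets and the measured genes of 8 marker lists, with red circles for the KO and blue squares for the WT array. Of the decidual stroma genes 18 of 19 lie above the line on both arrays, against 4 of 24 family probe sets and 5 of 21 trophoblast genes. Of all probe sets on the array 42.0% exceed that level on both.

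Genes with the most similar pattern were sought by Pearson correlation of log2 signal over the 8 arrays, each signal floored at the background level of its array. For Prl3c1 they were Dtnb (r = 0.9998), Smad6 (0.9996) and Hmbox1 (0.9994), and 212 genes had an r over 0.95. For Prl6a1 they were Serinc4, Pax8 and Wnt5b, with r of 0.9991 to 0.9997, and 5335 genes were over 0.95. Prl3c1 and Prl6a1 were both at the floor on the 6 oocyte and blastocyst arrays, which dim genes share. For Prl8a2 they were Ap3s2 (r = 0.987), Arhgap35 (0.986) and Gm30752 (0.978), with 37 genes over 0.95. Arhgap35 followed Prl8a2 also on the array labelled blastocyst WT 2, with 590 there, 649 and 683 in oocytes and 219 and 242 at the implantation site. These correlations are descriptions of 8 arrays in 3 stages and carry no test.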

How the data were processed

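The authors deposited 1 table of signal intensity on a linear scale for 8 arrays, made with MAS5 (version not stated) per the submitters' processing notes. The 2% trimmed mean was 500 on every array, with no detection calls in the table. The brightest of 27 Bacillus control probe sets served as background, which assumes that no Bacillus RNA was added. Arrays have no depth, and their number limits the precision.

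Probe sets were named with the platform annotation, updated through RefSeq (GRCm38.p6): 34957 had 1 gene, 920 several and 9160 none. The members and lists were chosen with earlier results of these data known. Log2 signals of all 45037 probe sets that are not controls (64 were left out) were tested without a filter with limma 3.58.1 in R 4.3.3 (lmFit, eBayes with intensity trend, two-sided, Benjamini-Hochberg, threshold 0.05). Blastocyst KO and WT were fitted on 4 arrays, and stages on 8 with stage and genotype as terms. Single arrays were compared by difference, described from 2-fold. All member probe sets are named. Elsewhere up to 4 genes a list, those with the largest KO difference at the implantation site, are named, and other named list genes were picked after their values were seen. A list gene is represented by its probe set of highest mean log2 signal. The methods were tested on simulated data. Alternatives were other scaling, a pseudocount of 50, a floor, a filter, another variance model and left-out arrays. The replicate numbers of blastocysts did not pair the arrays: the correlation of KO 1 minus KO 2 with WT 1 minus WT 2 over probe sets was 0.00509. Plots were drawn with matplotlib 3.10.9.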

Additional observations from a re-analysis of the deposited data

How the results depend on the processing

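For the members, 264 combinations of a tested difference and an alternative were computed: 222 kept direction and side of the threshold, 4 no longer passed, 21 newly passed and 17 turned sign. Of 40 combinations for untested differences, 26 moved by less than 1 SD between blastocyst replicates and kept their sign, and 5 turned sign. Those differences are of oocytes and implantation sites, which have no replicates, so the SD was borrowed. It includes the array labelled blastocyst WT 2, and a wide SD is easily met. The cause of these changes was not tested, except for the floor, which lifts dim signals to array levels that differ between arrays. Members called at the implantation site against blastocysts were 0 as reported. With quantile normalization, a common median or a pseudocount they were 2, Prl3c1 and Prl6a1, both higher. With the floor they were 4, all lower, namely Prl4a1 and Prl7d1 (both -1.50), Prl8a2 (-1.21) and Prl6a1 (-1.10). Only 1 was called, as higher, without the intensity trend (Prl6a1) or with stage only (Prl3c1). Against oocytes they were 1 as reported, and 2 with a common median or a pseudocount (Prl3c1 higher and Prl7d1 lower). With the floor the 1 called was Prl8a2, as lower. There were 0 in the upper 50% of probe sets, which of the members kept only Prl8a2. In blastocysts against oocytes they were 0 as reported and 1 (Prl7d1, lower) with quantile normalization, a common median or a pseudocount. Leaving out single arrays gave 0 to 1 in each stage contrast, where a lone remaining array is assumed to vary like the other groups.

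Over all probe sets, blastocyst KO against WT gave 9 calls as reported, 27 with quantile normalization, 14 with a common median, 19 with a pseudocount, 32168 with the floor (4 of them members) and 0 without the intensity trend (by limma; 3148 higher and 1301 lower at an unadjusted p under 0.05). Leaving out single arrays gave 1 to 381, the lowest without the first WT array and the highest without the array labelled WT 2. With the replicate number as a block (replicate block) it gave 629, and the numbers do not pair the arrays. Implantation site against blastocyst gave 8502, 33813 with the floor, 4559 without the trend and 2957 to 9296 without single arrays (lowest without the implantation site KO array). Implantation site against oocyte gave 8176, 4751 without the trend and 4869 to 8234 without single arrays (lowest without the implantation site KO array). Blastocyst against oocyte gave 9484 and 5823 to 10133 (lowest without the oocyte WT array). Probe sets at least 2-fold apart at the implantation site numbered 17676, 9418 with a pseudocount and 3387 with the floor.

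Untested signs that turned were those of Prl3c1 (0.16 with a common median) and Prl4a1 (-0.41 with the floor) in KO against WT at the implantation site, and of Prl6a1 (1.78 with the floor) and Prl8a2 (-0.0065 with quantile normalization, -0.28 with a common median) in oocytes. Tested signs that turned were, for blastocyst KO against WT, Prl3c1 and Prl7d1 at 0.71 and Prl8a2 at 0.29 with the floor, and, without single arrays, Prl3c1 from -2.16 to 1.73 (0.48 without the first KO array), Prl7d1 from -2.18 to 0.78 (0.51 without the first WT array) and Prl8a2 from -1.50 to 0.23. At the implantation site Prl6a1 turned with the floor to -1.10 against blastocysts and -0.67 against oocytes, Prl4a1 with quantile normalization to 0.15 against oocytes, and Prl8a2, from -0.63 to 0.061 against blastocysts without single arrays. In blastocysts against oocytes Prl4a1 turned to 0.18 with quantile normalization, 0.43 with the floor and, without single arrays, lay between -0.66 and 0.42 (without the oocyte KO array), and with the floor Prl6a1 to 0.43 and Prl7d1 to 0.19. Each member has 1 probe set, so averaging probe sets changed nothing.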
